A study of Mus musculus with 4 samples.

Results

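The genes described here are 47 nucleolar and ribosome assembly factors, chosen by symbol: RNA polymerase I (Pol I) subunits and initiation factors, the core proteins of small nucleolar ribonucleoproteins (snoRNPs), and factors that process the ribosomal RNA precursor into the small and large subunits. All 47 symbols were found among the 23875 genes listed, all 47 were protein-coding, and all 47 averaged 1 CPM (read counts scaled to the library total) or more, as did 12214 of the genes listed, here referred to as expressed genes. The members lay on 19 chromosomes.

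RNA was sequenced from 2 libraries of ID8-PW2 cells and 2 libraries of ID8-P0 cells, biological duplicates of each line. ID8 cells arose from ovarian surface epithelium of C57BL/6 mice that transformed in culture, and both lines are labelled as wild type in genotype. ID8-PW2 is the line recovered from peritoneal wall tumors after 2 passages in mice, and ID8-P0 is the unpassaged ID8-luc line, which expresses GFP and luciferase. Both were kept in suspension on a coating that blocks attachment for 24 h before RNA was taken. Each group is thus 1 cell line, and the labels place the ID8-PW2 libraries on lanes 4 and 8, and both ID8-P0 libraries on lane 3. The study compared ID8-PW2 with ID8-P0 cells. The 4 count columns carry names that match no label, and the columns of the authors' own comparison were set aside, so no difference between ID8-PW2 and ID8-P0 is given here. What follows are the levels of these genes as the authors' mean over all 4 libraries, with no SD or n of their own, and the authors' dispersion per gene.

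The nucleolus forms around the ribosomal RNA genes. Pol I copies each gene into a long precursor, which snoRNPs modify at chosen bases and which processing factors cut, fold and load with ribosomal proteins until a small and a large subunit leave the nucleus. Cells that grow fast make many ribosomes, and enlarged nucleoli are a long-known feature of tumor cells. Each snoRNP is built around a small nucleolar RNA (snoRNA), and in mammals most snoRNAs are cut out of introns of other genes, several of which encode nucleolar or ribosomal proteins.

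In 5 of the 47 genes the table listed snoRNA genes on the same strand within the gene: 5 in Nop56, 4 in Nop58, and 3 each in Ncl, Wdr43 and Gnl3, 18 in all. This was 10.6% of the members, whereas 186 of the 11681 expressed protein-coding genes (1.59%) held a snoRNA. Of these 18 genes, 8 lay in introns of every annotated transcript, and the other 10 overlapped an exon of at least 1 transcript. One of the 3 in Ncl, Gm24148, is annotated as a miRNA by RefSeq. Box C/D snoRNAs, the class that Fbl, Nop56 and Nop58 bind, are recognized by a box C near the start and a box D near the end. A box C (searched as ATGATGA or GTGATGA) and a box D (searched as CTGA) were both found in 8 of the 18. Only these exact letters were searched, close to either end, so boxes of other spelling or place would be missed. The search hence does not show that the rest lack boxes, and not all 18 need be of the C/D class. One named snoRNA with both boxes is shown for each host, since these RNAs and their hosts are the pairs of which levels are given next. The coordinates are GRCm38, the sequences are GENCODE transcripts written 5′ to 3′, and the capitals mark box C and then box D.
Snord82 (inside Ncl, chr1:86356261-86356330, minus strand): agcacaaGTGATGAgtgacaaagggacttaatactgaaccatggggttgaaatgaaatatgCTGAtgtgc
Snord110 (inside Nop56, chr2:130275506-130275573, plus strand): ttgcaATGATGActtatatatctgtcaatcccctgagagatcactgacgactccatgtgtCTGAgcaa
Snord11 (inside Nop58, chr1:59704790-59704873, plus strand): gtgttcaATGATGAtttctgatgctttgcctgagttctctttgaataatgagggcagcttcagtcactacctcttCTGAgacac
Snord92 (inside Wdr43, chr17:71631281-71631365, plus strand): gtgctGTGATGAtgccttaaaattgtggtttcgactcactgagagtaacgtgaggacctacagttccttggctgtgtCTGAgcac
Snord69 (inside Gnl3, chr14:31014287-31014366, minus strand): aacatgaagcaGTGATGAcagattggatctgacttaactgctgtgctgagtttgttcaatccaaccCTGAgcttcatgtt

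Levels were compared between genes per kb of exon, with all exons of a gene merged, since a longer gene collects more reads at the same RNA amount. Snord82 had 1049 CPM and Ncl, its host, had 490 CPM, or 14987 and 48.1 CPM per kb. Snord57 was at 5413 CPM per kb, Gm24451 at 5199, Snord110 at 2289, Gm23650 at 1664 and Gm23187 at 55.6 CPM per kb, where Nop56 was at 154 CPM per kb. The 4 snoRNAs of Nop58 were between 319 and 575 CPM per kb, beside 3.91 CPM per kb for the host. Per kb, 17 of the 18 snoRNAs thus stood above their host, with Gm23187 the exception. The RNA was split by size before the libraries were made, and the fraction of longer RNAs was fragmented. The 18 snoRNA genes are 68 to 133 bases long, shorter than the size limit of that fraction, and whether the table holds that fraction alone is not stated in the sources used here. The levels on snoRNA genes may therefore not stand for mature snoRNAs, and reads of unspliced host RNA cannot be told apart from them.

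The snoRNAs of Wdr43, a factor of the small subunit processome, were between 169 (Snord92) and 324 (Snord53) CPM per kb, and the host was at 9.36 CPM per kb. Those of Gnl3, the nucleolar GTPase known as nucleostemin, were between 162 (Snord69) and 1155 (Gm24916) CPM per kb, and the host was at 3.54 CPM per kb. In reads not scaled to length, 5 of the 18 snoRNAs had a higher CPM than the whole host gene. The 3 snoRNAs of Gnl3 summed to 152 CPM beside 21.6 CPM for Gnl3, those of Ncl to 1191 CPM beside 490 CPM, and those of Nop56 to 1358 CPM beside 633 CPM. In Nop58 the sum was 140 CPM beside 42.1 CPM, and in Wdr43 it was 58.6 CPM beside 44.7 CPM. How reads of an snoRNA that overlaps an exon were shared between both genes is not stated in the sources used here, and their part in the level of a host was not tested.

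All 18 snoRNAs reached 1 CPM. Of the 281 snoRNA genes inside any protein-coding gene 217 (77.2%) did, and of all 545 snoRNA genes listed 287 (52.7%) did. The hosts of the 18 were all expressed genes, whereas the hosts of the 281 were taken whether expressed or not. The median of the 18 was 47.9 CPM, against 25.3 CPM for the 281 snoRNAs inside any protein-coding gene, in which the 18 are included. Within the group the range was wide, and the 18 ran from 4.78 CPM (Gm23187) to 1049 CPM (Snord82).

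**Figure D1:**
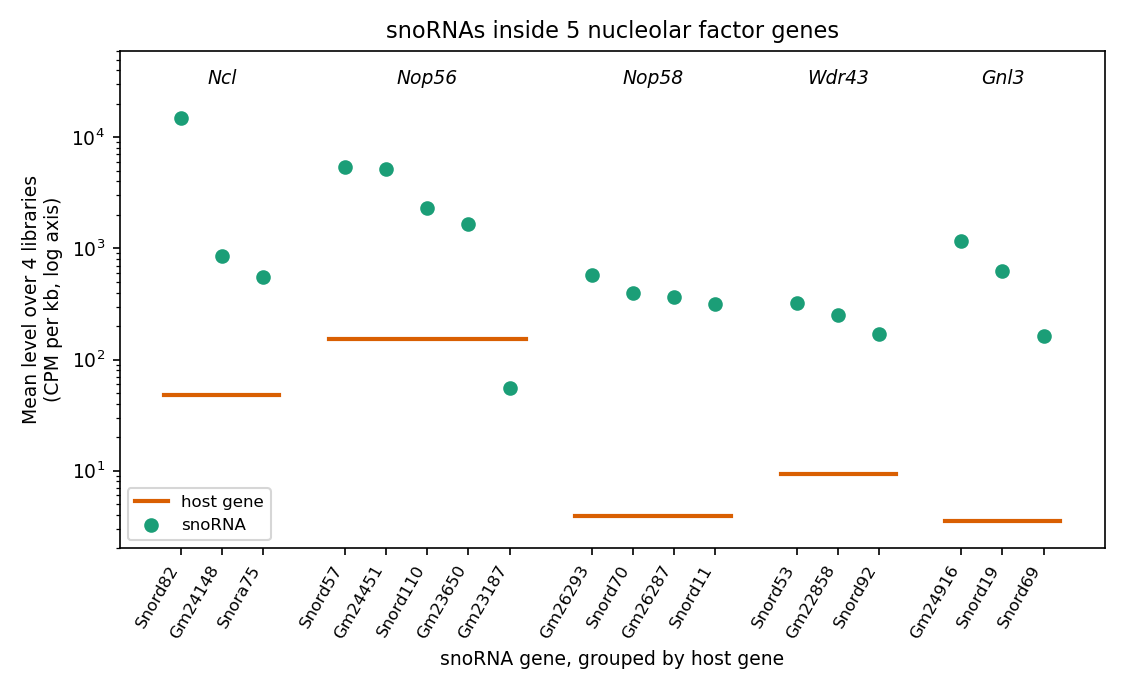
Mean level over the 4 libraries of each of the 18 snoRNA genes (points) that lie inside 5 nucleolar factor genes, in CPM per kb on a log axis, with the level of the host per kb of exon as a line. All points but Gm23187 in Nop56 sit above the line of their host.

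Promoter sequences of RefSeq (GRCm38.p6), from 250 bases before to 50 bases after the transcription start, were found for 40 of the 47 genes. They were searched on both strands for CACGTG, the canonical E-box that MYC family proteins bind, and for CCGGAAG or its reverse complement CTTCCGG, a core that ETS family proteins bind. CACGTG stood in 7 of 40 member promoters (17.5%), in 12.0% of the promoters of 8776 expressed protein-coding genes and in 8.09% of all 27025 genes with a promoter. CCGGAAG stood in 15 of 40 (37.5%), in 20.8% of the expressed protein-coding genes and in 9.93% of all genes. Both shares were thus higher in the members than in either larger set, with no test made. Nop2, a methyltransferase of the large subunit RNA, and Rrn3, the factor that makes Pol I ready to initiate, held both motifs. A match is a run of letters and does not show that a factor was bound. The stretches of 30 bases around CACGTG (in capitals) are shown for 6 genes, because they let the place of the motif be seen in genes of 3 roles: Pol I initiation (Rrn3), the small subunit (Imp4, Utp20 and Wdr43) and the large subunit (Pes1 and Nop2).
Rrn3 (chr16:13780639-13780668, plus strand): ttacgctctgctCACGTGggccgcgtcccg
Imp4 (chr1:34439696-34439725, plus strand): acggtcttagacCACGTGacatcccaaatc
Utp20 (chr10:88826765-88826794, minus strand): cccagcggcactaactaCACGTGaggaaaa
Wdr43 (chr17:71616220-71616249, plus strand): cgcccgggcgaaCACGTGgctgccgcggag
Pes1 (chr11:3963965-3963994, plus strand): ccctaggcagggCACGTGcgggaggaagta
Nop2 (chr6:125131811-125131840, plus strand): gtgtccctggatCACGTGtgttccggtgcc

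Counted from the transcription start, the first base of CACGTG was at -48 in Rrn3, which has another at -215, at -121 in Imp4 and at -60 in Nop2. In Pes1 it was at 3, in Wdr43 at 18 and in Utp20 at 38, all within the transcribed part. Mybbp1a, which encodes a nucleolar protein that binds MYB, held it at 41. The 15 genes with the ETS core included 4 of the Pol I group, Polr1c, Polr1e, Nolc1 and Rrn3, and 2 of the H/ACA core proteins, Nhp2 and Gar1. The core is shown for 2 of them, in capitals.
Polr1c (chr17:46248069-46248098, minus strand): ccacttgacgtCCGGAAGtgaaggacgtgg
Nhp2 (chr11:51619739-51619768, plus strand): cacttgaaaacCCGGAAGtgatgtcggagg

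Per kb of exon, the 47 genes had a median of 5.06 CPM per kb and ranged from 1.27 (Wdr12) to 337 CPM per kb (Npm1), and the median of the 11681 expressed protein-coding genes was 4.08 CPM per kb. Of the members, 28 were above that median, 13 were above 75% of the coding genes, 5 were above 90% and 4 were above fewer than 25%. The 5 with the highest levels per kb were Npm1, Nop56, Ncl, Pes1 and Imp3, and the 4 with the lowest were Wdr12, Rrp9, Polr1e and Tcof1. The members thus spanned most of the range of coding genes, with their middle somewhat above it. In CPM, not scaled to length, they summed to 3297 CPM, 0.326% of the summed mean CPM of all genes, of which Npm1, Nop56 and Ncl made up 61.3%.

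**Figure D2:**
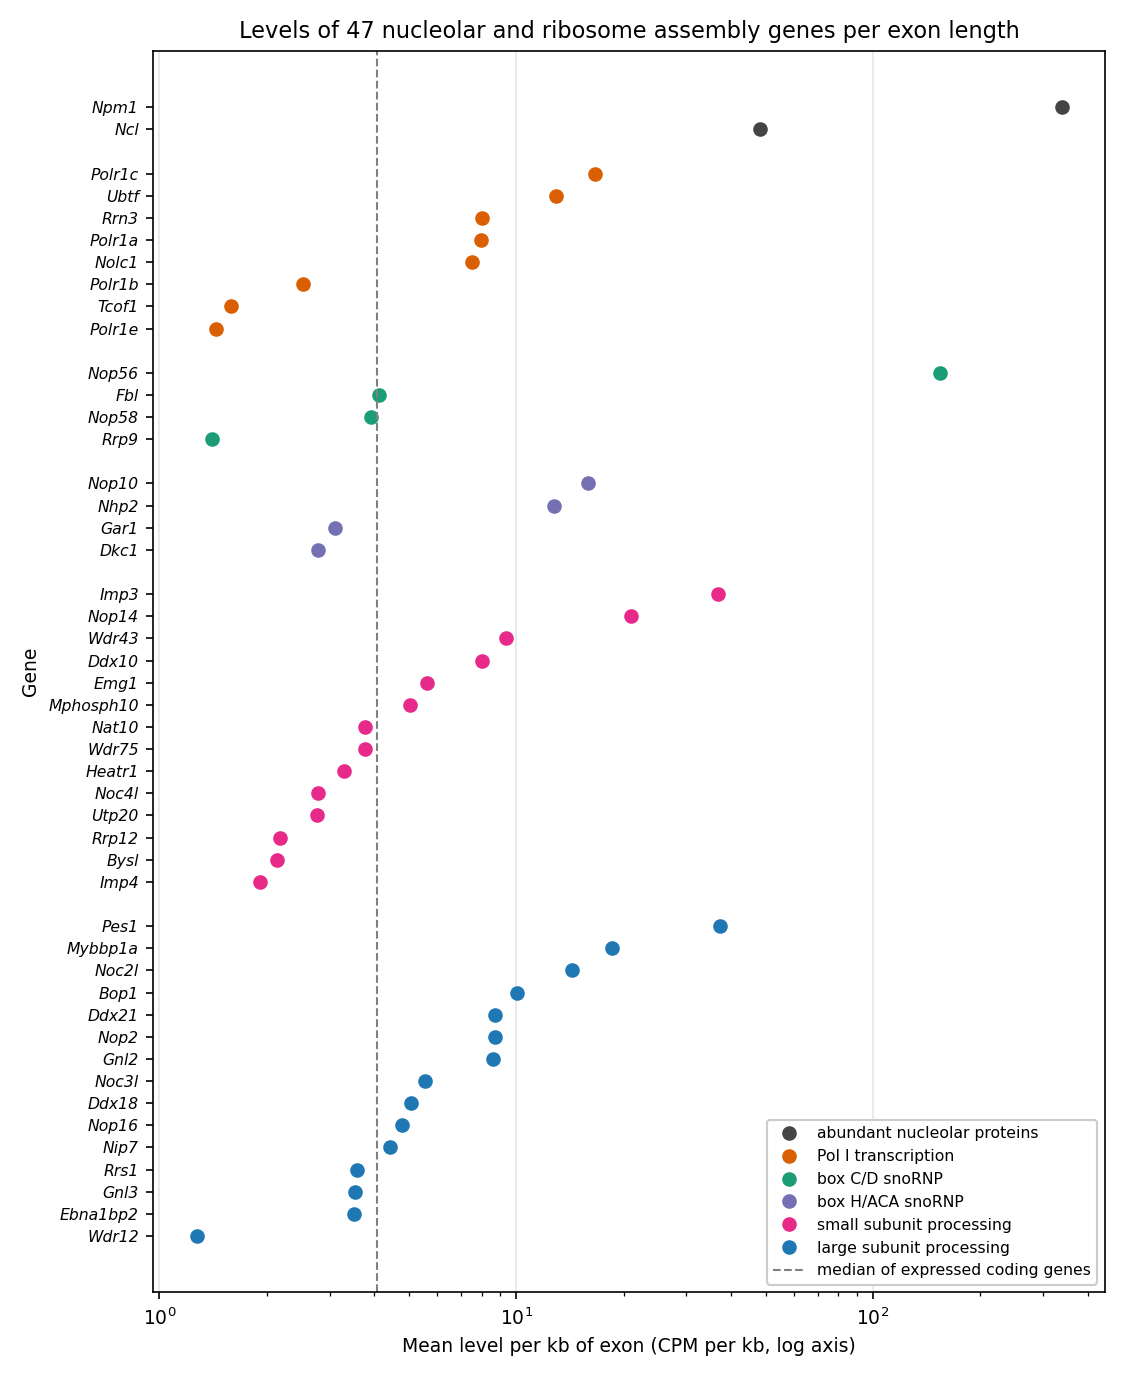
Mean level over the 4 libraries of each of the 47 genes in CPM per kb of exon on a log axis, sorted within 6 roles, each point being 1 gene. The dashed line is the median of expressed protein-coding genes, 4.08 CPM per kb, and 28 of the 47 points lie to its right.

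The abundant nucleolar proteins Npm1 and Ncl were both in the uppermost part of the range per kb. Npm1 (chr11:33152287-33163206, minus strand) encodes nucleophosmin, a histone and ribosome chaperone of the nucleolar granular component, and had 899 CPM or 337 CPM per kb, above 99.7% of coding genes. Ncl (chr1:86344719-86359455, minus strand) encodes nucleolin, which binds rRNA precursor and rDNA chromatin, and had 490 CPM or 48.1 CPM per kb, above 96.7%. The ratio of Npm1 to Ncl was 7.01 per kb, and 9.21 with the longest transcript as the length. Not scaled to length it was only 1.83, and Ncl has 10188 bases of merged exon beside 2665 for Npm1. Npm1 is also a gene with many copies elsewhere. Of the 50-base words of its longest transcript, 40.9% occurred in annotated transcripts of 10 genes elsewhere, whereas for Ncl 0.859% did. Reads of such words cannot be placed with certainty, and how the authors shared them is not stated in the sources used here, so the level of Npm1 is uncertain.

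The Pol I group held 8 genes, 5 of them above the coding median per kb. Among the subunits, Polr1c, which Pol I shares with Pol III, was at 16.6 CPM per kb, Polr1a, the largest subunit, at 7.94, Polr1b, the other subunit of the catalytic centre, at 2.53, and Polr1e, which stands on the lobe of the enzyme, at 1.45 CPM per kb. The catalytic pair Polr1a and Polr1b, present once each in the enzyme, differed by 3.14 per kb, and Polr1c and Polr1e by 11.5. The mean levels of the Pol I subunits were thus unequal, although no error can be set on the ratios.

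Ubtf, the upstream binding factor that keeps rDNA open, was at 84.7 CPM or 12.9 CPM per kb. Rrn3 was at 34.6 CPM or 8.02 CPM per kb. Nolc1 and Tcof1 encode a pair of related phosphoproteins (Nopp140 and treacle) that tie Pol I to snoRNPs, and they were at 7.54 and 1.59 CPM per kb, a ratio of 4.74. The other Pol I subunits and factors, 14 genes taken as a list of known parts, were all expressed, with a median of 2.64 CPM per kb, below the 7.74 CPM per kb of the 8 members. The list ran from 1.49 CPM per kb for Taf1d, part of the Pol I initiation factor SL1, to 19.1 CPM per kb for Polr2k, which all nuclear RNA polymerases share.

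The box C/D snoRNP has 3 core proteins among the members, Fbl, Nop56 and Nop58, and Rrp9 is the protein that binds the U3 snoRNP. Nop56 (chr2:130274430-130279313, plus strand) was at 633 CPM or 154 CPM per kb, above 99.3% of coding genes. Nop58, its paralog in the same particle, was at 42.1 CPM or 3.91 CPM per kb, and Fbl, the methyltransferase fibrillarin, at 17.4 CPM or 4.13 CPM per kb. Nop56 was thus 39.4 times Nop58 and 37.4 times Fbl per kb, whereas the ratio of Nop58 to Fbl was 0.948. With the longest transcript as the length, Nop56 over Fbl was 24.2 and Nop58 over Fbl 0.614. Nop58 has 10758 bases of merged exon, beside 4209 for Fbl and 4099 for Nop56. Not scaled to length, Nop56 was 15.03 times Nop58 and 36.4 times Fbl, and Nop58 was 2.42 times Fbl. The near equality of Nop58 and Fbl thus held only per kb of merged exon. Of the 50-base words of Nop56, 17.7% occurred in 6 other genes, and Nop56 holds 5 snoRNA genes, 4 of which overlap an exon. The part of either in the level of Nop56 was not tested. Rrp9 was at 4.11 CPM or 1.40 CPM per kb.

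The box H/ACA core, which carries pseudouridylation and in telomerase binds the RNA subunit, has Dkc1, Nhp2, Nop10 and Gar1. Nop10 was at 15.9 and Nhp2 at 12.7 CPM per kb, a ratio of 1.25. Dkc1, the pseudouridine synthase dyskerin, was at 2.78 and Gar1 at 3.10 CPM per kb, a ratio of 0.896. The 4 genes hence fell into a high pair and a low pair per kb, with Nop10 at 5.73 times Dkc1. Nop10 and Nhp2 have the shortest exon totals of the group, 1109 and 1146 bases, and with the longest transcript as the length Nop10 over Dkc1 was 3.90. Not scaled to length, their levels were 17.7 CPM for Nop10, 14.6 CPM for Nhp2, 11.5 CPM for Dkc1 and 5.32 CPM for Gar1. The 11 expressed genes listed for the assembly of snoRNPs and related particles had a median of 9.04 CPM or 2.65 CPM per kb. Ruvbl1, an ATPase of that path, was at 29.1 CPM.

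Of the 14 small subunit factors, 6 were above the coding median per kb, and the group's median was 3.77 CPM per kb. Imp3 and Imp4 form a complex with Mphosph10 on the U3 snoRNA, and they were at 36.8 (Imp3), 5.03 (Mphosph10) and 1.91 CPM per kb (Imp4). Imp3 was thus 19.2 times Imp4 per kb, and 13.1 times with the longest transcript as the length. Imp3 has a single exon of 924 bases, of whose words 7.31% occurred elsewhere, and Imp4 has 8553 bases of merged exon. Nop14, which forms a complex with Noc4l and Emg1, was at 21.0 CPM per kb, Emg1, a pseudouridine methyltransferase, at 5.63 and Noc4l at 2.78 CPM per kb. Per kb, the partners of both complexes were therefore at unequal levels, in each case with 1 member far above the rest. Not scaled to length, Imp3 was only 2.07 times Imp4 and 1.82 times Mphosph10. Nop14 was then 7.96 times Noc4l and 2.20 times Emg1.

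The large scaffold proteins of the small subunit processome were close together: Utp20 was at 2.76 CPM per kb and Heatr1 at 3.30 CPM per kb. Wdr43 and Wdr75, which stand with Heatr1 in the UtpA complex that meets the precursor first, were at 9.36 and 3.77 CPM per kb. The helicase Ddx10 was at 8.02 CPM per kb, and the acetyltransferase Nat10 was at 3.77 CPM per kb. Bysl (2.13 CPM per kb) and Rrp12 (2.18 CPM per kb), which act on late small subunit particles, were next to each other near the low end of the group. The 38 other small subunit factors of a list of known parts were all expressed, with a median of 5.05 CPM per kb.

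Of the 15 large subunit factors, 11 were above the coding median per kb, and the group's median was 5.56 CPM per kb. Pes1, Bop1 and Wdr12 form the PeBoW complex, needed to process the precursor of the large subunit RNA, and were at 37.2 (Pes1), 10.0 (Bop1) and 1.27 CPM per kb (Wdr12). Pes1 was thus 29.2 times Wdr12, and 25.3 times with the longest transcript as the length. Pes1 (chr11:3963975-3980004, plus strand) shared 21.0% of its 50-base words with 2 other genes, and Wdr12 has the longest merged exons of the members, 11955 bases. Per kb, the levels of mRNA for this complex were the most unequal of the complexes compared here, apart from those that involve Nop56. That rank depends on the length used. Not scaled to length, Pes1 was 7.39 times Wdr12, while Polr1a was 16.7 times Polr1e and Nop14 was 7.96 times Noc4l.

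Noc2l and Noc3l, whose yeast counterparts pair on precursors of the large subunit, were at 14.3 and 5.56 CPM per kb. The GTPases Gnl2 and Gnl3 were at 8.58 and 3.54 CPM per kb, a ratio of Gnl3 to Gnl2 of 0.413 that was 0.715 with the longest transcript. Mybbp1a was at 18.5 CPM per kb, and the helicase Ddx21, which also acts on Pol I transcription, was at 8.72 CPM per kb. Nop2 was at 8.70 CPM per kb. Of these, Noc2l, Gnl2, Mybbp1a, Ddx21 and Nop2, together with Pes1 and Bop1, were each above at least 72.4% of coding genes.

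Ddx18, another helicase, was at 5.06 CPM per kb, but 62.7% of its 50-base words occurred in 4 other genes, the highest share of the members. The remaining large subunit factors were between 3.51 and 4.78 CPM per kb: Nop16 was at 4.78, Nip7 at 4.44, Rrs1 at 3.58 and Ebna1bp2 at 3.51 CPM per kb. Rrs1, an assembly factor for the 5S particle, has 1 exon. The 43 other large subunit factors of a list of known parts were all expressed, with a median of 4.89 CPM per kb. For comparison, the 79 cytosolic ribosomal protein genes, the freight of these factors, had a median of 65.5 CPM per kb, and Npm1 and Nop56 were the members above it.

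Opposite-strand genes overlapped 15 of the 47 members, and the libraries kept strand. In 24 members no 50-base word of the longest transcript occurred in an annotated transcript of a gene elsewhere. In 4 (Ddx18, Npm1, Pes1 and Nop56) over 10% of the words did. Npm1, Pes1 and Nop56 were among the 5 members with the highest level per kb. Whether reads of related genes raised or lowered these levels was not tested.

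The authors' dispersion was turned into a biological coefficient of variation (BCV), its square root in percent, which describes how far libraries spread around their fitted mean beyond counting error. The kind of estimate, and whether it was taken within the lines, is not stated in the sources used here. The median BCV was 8.81% over the 47 genes and 9.77% over expressed genes, and 26 of the 47 were under 9.77%. The BCV falls as the level rises, so each member was set beside the genes within 10% of its own CPM. Of the 47, 21 were under the median of genes of like level, 4 were above at least 90% of them and 4 were below at least 90% of them. About 10% of all expressed genes lie beyond each of these limits by construction, so the counts of 4 were near the general share. The group as a whole was thus close to other genes of its level.

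The 4 members of high BCV for their level were Rrn3 and Polr1e of the Pol I group, Rrs1 of the large subunit group and Dkc1 of the H/ACA core. Rrn3 had a BCV of 10.7%, where the 634 genes of like level had a median of 7.54%, and was above 98.4% of them. Rrs1 had 21.3%, where the median of 491 genes was 13.7%. Polr1e had 22.1%, where that of 416 genes was 14.7%, and Dkc1 had 15.2%, where that of 590 genes was 11.3%. On the low side, Ubtf had 6.12%, where the median of 391 genes was 6.56%, and Nolc1 and Gnl3 had 7.19% and 7.97%. Npm1 (5.84%) and Ncl (5.83%) were near the lowest BCV of any expressed gene, 5.74%. Of the genes named, Ubtf and Nolc1 (low for their level) and Rrn3 and Polr1e (high) are of the Pol I group. With so few genes, this is not read as a trait of that group. Which libraries made up the spread of these genes was not analysed here.

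**Figure D3:**
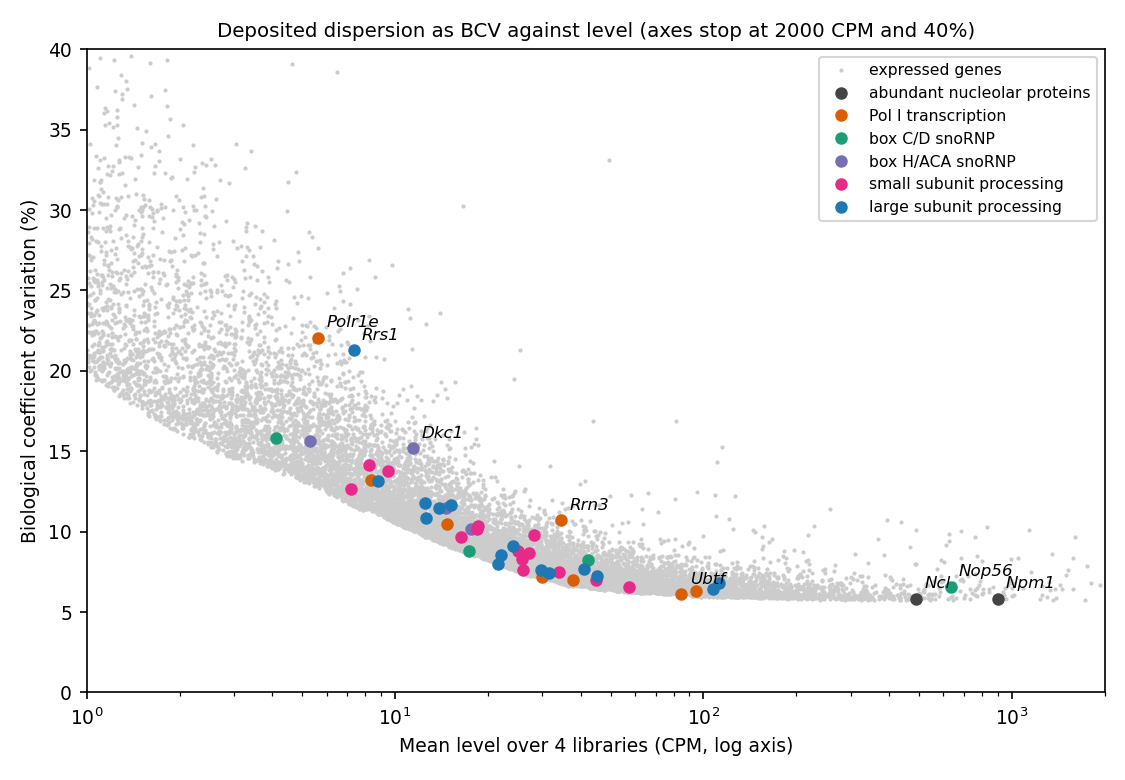
BCV from the authors' dispersion, in percent, against the mean level over the 4 libraries in CPM on a log axis, for expressed genes (grey) and the 47 genes (colored by role). Rrn3 (10.7%), Dkc1 (15.2%), Rrs1 (21.3%) and Polr1e (22.1%) stand in the upper part of the band, each above at least 90% of genes of like level.

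Of 13 regulators of ribosome synthesis in a list of known genes, 12 were expressed. Myc, which drives many nucleolar genes, was at 28.4 CPM or 10.4 CPM per kb, with a BCV of 7.23%. Mtor, the kinase that couples nutrients to Pol I, was at 142 CPM or 14.0 CPM per kb, and Akt1 at 23.5 CPM per kb. Cdkn2a, whose ARF product binds Npm1 in the nucleolus, was at 0.163 CPM, the lowest level in the table, shared by 4561 genes. Mycn was at 1.25 CPM or 0.378 CPM per kb. Of the nuclear exosome, which trims precursor ends, 13 genes were expressed with a median of 2.53 CPM per kb.

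Of the summed mean CPM of all genes, 29.7% was that of the non-coding gene Gm26924 (chr17:39846958-39848788), so every CPM above is relative to a total of which this gene is a large share. Gm26924 was grouped here with rRNA and snoRNA host transcripts, and how far its reads are ribosomal RNA was not tested. Without Gm26924 the members made up 0.464% of the rest. Of 8 markers of ovarian surface epithelium and simple epithelium, all 8 reached 1 CPM, at very unlike levels. Krt19 was at 938 CPM, Krt18 at 501, Krt8 at 435, Wt1 at 153 and Msln at 101 CPM. Epcam, at 4.12 CPM, and Krt7, at 1.91 CPM, were low. Of 7 leukocyte markers 2 were expressed, Cd68 at 13.0 CPM and Csf1r at 1.88 CPM, while Ptprc was at 0.224 CPM and Lyz2 at 0.163 CPM. Of 3 endothelial markers 1 was expressed, Pecam1 at 4.62 CPM. Of 4 fibroblast markers 3 were expressed, Dcn at 320 CPM, Pdgfra at 8.39 CPM and Col1a1 at 1.57 CPM, while Thy1 was at 0.163 CPM. Of 2 adipocyte markers 0 were expressed. These marker levels are the authors' mean over both lines.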

How the data were processed

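RNA was size-fractionated, ribosomal RNA was reduced with a duplex-specific nuclease, and stranded libraries were sequenced (4 libraries, 2 ID8-PW2 and 2 ID8-P0). Per the submitters' processing notes and the methods, the authors used CASAVA 1.8.2, Trimmomatic 0.22 and fastx_clipper, aligned with TopHat2 2.0.6 and Bowtie2 2.0.2, summed reads per gene with their own scripts and fitted edgeR 3.20.8. The notes name a human build, while identifiers and chromosomes are mouse. The authors' deposited level is a log2 CPM averaged over all 4 libraries, and it was turned into CPM. The deposited dispersion is a score per gene from the authors' fit, and BCV is its square root. Not used were 4 count columns, whose names match no label, and 5 columns of the authors' own comparison (fold change, its log, p-value, adjusted p-value and direction). Depth per library, a test between the lines and leaving out libraries, as designed, were therefore not done, and the rule for naming genes by their calls had no calls to use: genes are named by role, with the extremes chosen after their values were seen. Both the members and the lists were chosen with earlier results of these data known.

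Gene lengths, exons, snoRNA sequences and shared 50-base words came from GENCODE M21 (GRCm38), in which 23382 of 23875 identifiers were found, 18929 of them with the same start or end, and promoters came from RefSeq (GRCm38.p6). Genes of at least 1 CPM were taken as expressed. Python 3.11.15, numpy 2.4.6, pandas 2.3.3 and matplotlib 3.10.9 were used. Of the code, the percentile and the search for snoRNA genes within a host were tested on simulated data.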

Additional observations from a re-analysis of the deposited data

How the results depend on the processing

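No paired analysis was possible because the count columns carry no sample, and for the same reason no other normalization, filter, threshold or left-out library was run on a comparison of ID8-PW2 with ID8-P0. The alternatives below were chosen after the data were seen. The median level of the members, 24.1 CPM, was 34.3 CPM with Gm26924 left out of the total and 21.9 CPM without chromosome 15 (Bop1) and the first 40 Mb of chromosome 11 (Npm1 and Pes1). The median member was above 57.6% of expressed genes, above 78.3% of all genes listed and above 73.2% of genes over the lowest level. With the longest transcript as the length, the median per kb was 7.21 in place of 5.06 CPM per kb, and that of expressed coding genes was 5.56 in place of 4.08. The share among coding genes, the median BCV, the count of genes that hold a snoRNA and both motif shares moved little or not at all. Levels per kb assume that reads cover all exons of a gene, which was not checked. With only a mean over both lines, a level can stand for unlike values in ID8-PW2 and ID8-P0 cells.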
